A study of Homo sapiens with 12 samples.

Results

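The BCL2 family decides whether the outer membrane of the mitochondrion is opened and the cell dies by apoptosis. Survival members hold the pore-forming members in check, and the BH3-only members, named after the short helix they share, bind the survival members or activate the pore-formers. The messages of the family are known to differ widely in lifetime, with MCL1 among the short-lived ones. The family was taken here as 10 genes by symbol, MCL1, BCL2, BCL2L1, BCL2L11, BAX, BAK1, BID, BAD, BBC3 and PMAIP1, and all 10 were found among the 34602 genes of the authors' deposited table of stability scores.

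The study used MDA-MB-231, a human triple-negative breast cancer cell line, as a mock line and as lines stably over-expressing tRNA-Arg (CCG, locus chr16.trna1) or tRNA-Glu (TTC, locus chr1.trna5). All 3 lines received α-amanitin, which inhibits RNA polymerase II (10 µg/mL, 0 or 9 h), and total RNA was hybridised to Illumina expression BeadChips. This gave 12 arrays in 6 groups of 2 (mock 0 h, mock 9 h, tRNA-Arg 0 h, tRNA-Arg 9 h, tRNA-Glu 0 h and tRNA-Glu 9 h). The title asks how both tRNAs affect mRNA stability. The labels do not say whether a tRNA line was 1 clone or whether replicates were separate cultures, and precision is limited by having 2 arrays in each group.

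The family was read from the authors' deposited table alone, which scores each gene once in either tRNA line relative to control. No formula, scale, log base, p-value or replicate value accompanies it, and a positive score was read from the column names as a more stable mRNA in the tRNA line. The array probes were not paired with genes, so no member could be given per array and no difference between members or lines was tested. For the same reason the line was not checked against its marker genes. The 2 columns share the control arrays, so their scores are set side by side as values only. The SD over all genes in the authors' deposited table was 0.135 for tRNA-Glu and 0.0846 for tRNA-Arg, 1.59 times as wide for tRNA-Glu. Each member's score is therefore given with its percentile among all genes of its column (0 lowest, 100 highest). Genes of other lists are given by score alone, so their values in the 2 columns are not on an equal spread.

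Mean raw intensity was 533 to 606 on the 6 arrays at 0 h and 497 to 525 on the 6 arrays at 9 h. The array tRNA-Glu 0 h replicate 1 had the highest 75th percentile of intensity, 225, against 172 to 195 on the other 5 arrays at 0 h. It is 1 of the 2 tRNA-Glu arrays at 0 h. How much it weighs in a tRNA-Glu score is not known, and scores without it were not analysed here. The arrays measure bulk RNA, so a lower amount per cell and fewer cells with an mRNA cannot be told apart.

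The family spread to both sides of zero in tRNA-Glu cells. The survival genes BCL2L1 and MCL1 were lowest, followed by the death genes BAX and BAD. The death genes BAK1 and PMAIP1 were highest, and the survival gene BCL2 lay near zero. By the authors' deposited table, 7 of the 10 members scored past 0.1 in size for tRNA-Glu, against 25.0% of all genes. Of these, 4 were at or below -0.1 (BCL2L1, MCL1, BAX and BAD), against 11.4% of all genes there. A further 3 were at or above 0.1 (BAK1, PMAIP1 and BBC3), against 13.6% of all genes; both counts come from the authors' deposited table. BID, BCL2 and BCL2L11 lay nearer zero. In the narrower tRNA-Arg column fewer members passed the same size. By the authors' deposited table, 4 of 10 were past 0.1 in size for tRNA-Arg, against 16.9% of all genes. BAK1, BAX and BBC3 were at or above 0.1 (8.89% of all genes) and BCL2L1 alone at or below -0.1 (8.05% of all genes) in that column of the authors' deposited table.

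A share above that of all genes was not particular to the BCL2 family. Of the 34602 symbols in the authors' deposited table, 19487 were not placeholder names such as LOC numbers, and 30.1% of these were past 0.1 in size for tRNA-Glu. The 3 lists of other apoptosis genes described below held 45.5% to 52.4% there, and short-lived regulator mRNAs 63.6%, in the authors' deposited table. For tRNA-Arg, 4 of 10 members compare with 19.7% of genes without placeholder names, 27.3% to 33.3% in those 3 lists and 45.5% of short-lived mRNAs in the authors' deposited table. No background of equally expressed genes could be drawn, since the authors' deposited table gives no signal levels. The family's medians lay near zero. Its median score in the authors' deposited table was -0.000953 for tRNA-Glu, with 5 members above zero and 5 below, beside a median of 0.00489 over all genes. For tRNA-Arg it was 0.0268 with 6 members above zero, beside 0.00166 over all genes, in the authors' deposited table.

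**Figure D1:**
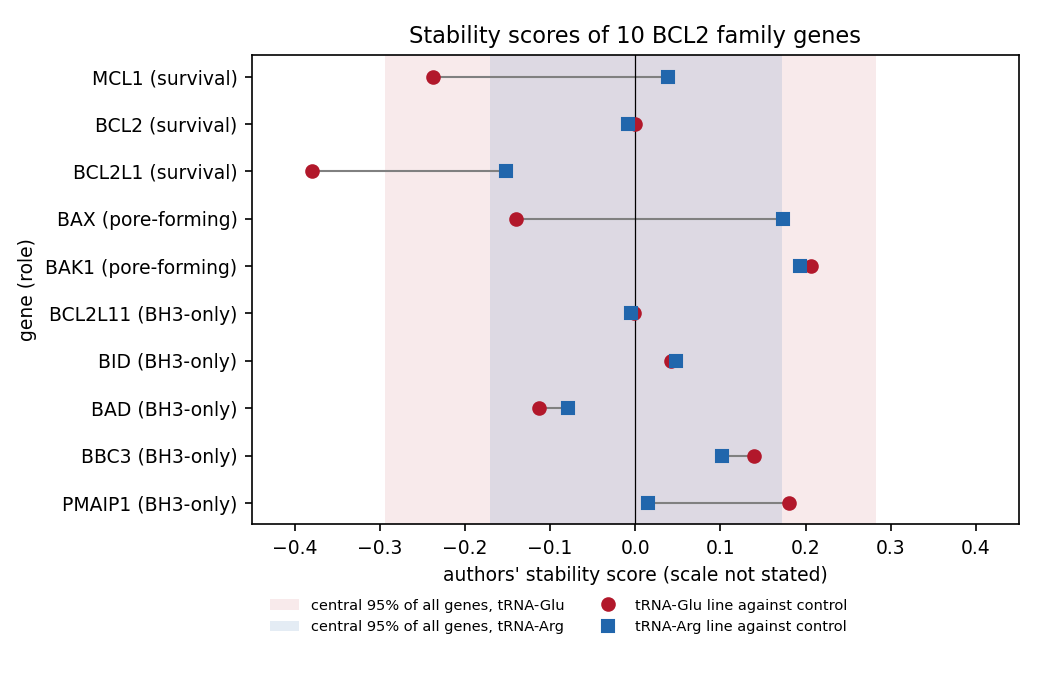
Stability scores (x axis, scale not stated) of the 10 BCL2 family genes (y axis, with role), as red circles for tRNA-Glu and blue squares for tRNA-Arg against control, joined by a grey line for each gene. Shaded bands hold the central 95% of all genes in each column. In the authors' deposited table BCL2L1 is lowest in both columns (-0.38 and -0.152), BAK1 is highest in both (0.206 and 0.193), and MCL1 and BAX lie on opposite sides of zero in the 2 columns.

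The survival members differed from one another. BCL2L1 encodes Bcl-xL, a guardian of the mitochondrial membrane, and by splicing also the shorter, death-promoting Bcl-xS. It had the lowest score of the family in both lines, -0.38 for tRNA-Glu and -0.152 for tRNA-Arg, according to the authors' deposited table. These were percentiles 1.41 and 3.26 of all genes in the authors' deposited table. For tRNA-Glu the score was outside the central 95% of all genes (-0.294 to 0.283), and for tRNA-Arg inside that of its own column (-0.171 to 0.172), in the authors' deposited table. BCL2L1 was the one member in the lowest 5% for both lines.

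MCL1 encodes a survival protein that is itself quickly turned over and whose message is short-lived. Its score was -0.238 for tRNA-Glu, at percentile 3.61, and 0.0381 for tRNA-Arg, at percentile 71.8, in the authors' deposited table. Its value for tRNA-Glu was inside the central 95% of all genes, although in the lowest 5%. Among genes without placeholder names it was at percentile 5.21 and so outside the lowest 5% in the authors' deposited table. MCL1 therefore scored low in one tRNA line and above the median of all genes in the other. Subtracting the tRNA-Arg from the tRNA-Glu score gave -0.276 for MCL1, at percentile 1.8 of that difference over all genes, from the authors' deposited table. If the scores are log differences from the same control, the control drops out of this subtraction, but their formula is not stated.

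BCL2, the founding member of the family, had 6.57e-05 for tRNA-Glu and -0.00845 for tRNA-Arg according to the authors' deposited table. At percentiles 47.3 and 43.6 it lay in the middle of all genes in the authors' deposited table. A score so near zero can belong to an mRNA of equal stability or to one too dim to measure, and the authors' deposited table does not tell these apart.

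The pore-forming members parted in tRNA-Glu cells and lay together in tRNA-Arg cells. BAX and BAK1 encode the proteins that assemble into the pore of the outer mitochondrial membrane and can largely stand in for each other. BAK1 had 0.206 for tRNA-Glu and 0.193 for tRNA-Arg, percentiles 95.2 and 98.2, the highest score of the family in both lines in the authors' deposited table. BAX had -0.14 for tRNA-Glu, at percentile 7.59, and 0.173 for tRNA-Arg, at percentile 97.5, in the authors' deposited table. Both tRNA-Arg scores were above the upper end of the central 95% of all genes, 0.172, in the authors' deposited table. BAK1 was above BAX by 0.346 for tRNA-Glu and by 0.0206 for tRNA-Arg according to the authors' deposited table. After subtraction of the tRNA-Arg from the tRNA-Glu score, the value of BAX, -0.313 at percentile 1.35, was the lowest of the family, while that of BAK1 was 0.0126, from the authors' deposited table. For BAK1, RefSeq lists 2 pseudogenes, whose RNA a probe may not separate from it.

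The BH3-only members covered a narrower range than the survival members in the tRNA-Glu column, from -0.113 to 0.181 in the authors' deposited table. PMAIP1 encodes NOXA, which binds chiefly MCL1. It had 0.181 for tRNA-Glu, at percentile 94, and 0.0155 for tRNA-Arg, at percentile 58.9, in the authors' deposited table. BBC3 encodes PUMA, which binds every survival member. Its scores were alike in both lines, 0.139 and 0.102 at percentiles 91.2 and 91.4, in the authors' deposited table. BAD encodes a protein that binds BCL2 and Bcl-xL and is kept inactive by phosphorylation. It lay on the low side in both lines, at -0.113 for tRNA-Glu and -0.079 for tRNA-Arg (percentiles 9.87 and 12.1), in the authors' deposited table. BID, which caspase-8 cleaves to carry a death receptor signal to the mitochondrion, had 0.0419 and 0.0476 (percentiles 69.3 and 76.1) in the authors' deposited table. BCL2L11 encodes BIM, an activator of BAX and BAK1. It had -0.00197 and -0.00499, at percentiles 46.2 and 45.8, in the authors' deposited table. BCL2L11 therefore stood with BCL2 in the middle of all genes in both lines.

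**Figure D2:**
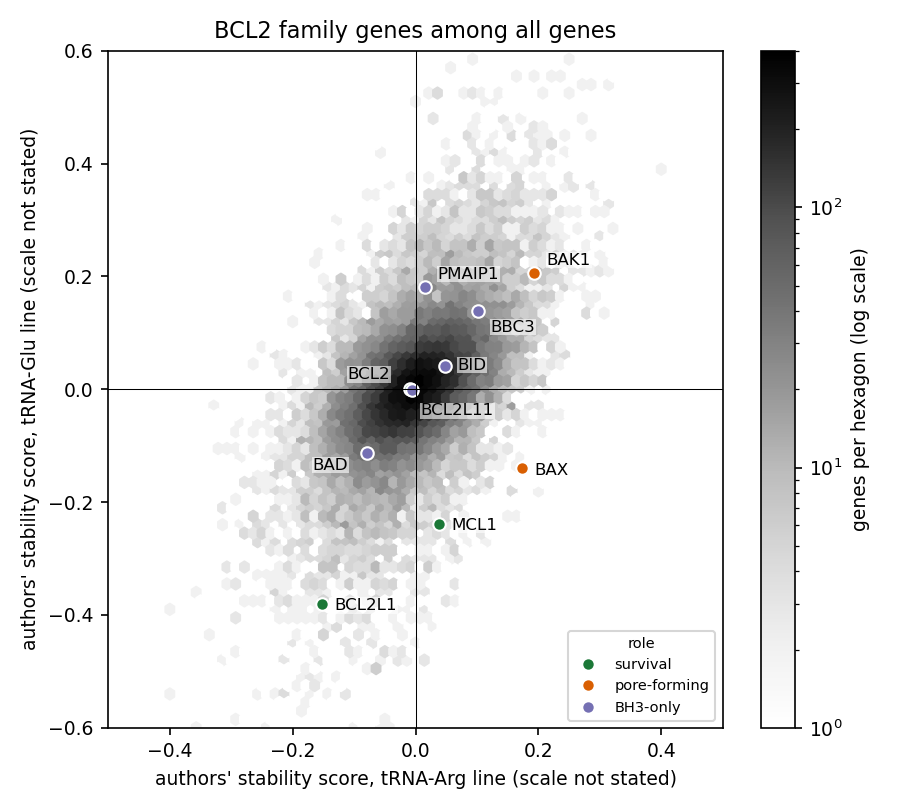
The tRNA-Glu score (y axis) against the tRNA-Arg score (x axis), both on a scale not stated, with all genes as grey hexagons shaded by their number on a log scale and the BCL2 family as points coloured by role. Genes beyond the axes are not drawn, and BCL2 lies under BCL2L11 at the centre. In the authors' deposited table BAX (-0.14 for tRNA-Glu, 0.173 for tRNA-Arg) and MCL1 (-0.238, 0.0381) lie at the lower right edge of the cloud, and BAK1, BBC3, BID and BAD lie near its axis.

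The tRNA-Glu and tRNA-Arg scores were close for some members and far apart for others. The difference between the 2 scores was past 0.1 in size for 4 of 10 members, against 21.7% of all genes, in the authors' deposited table. It was so for 25.9% of genes without placeholder names, 38.1% to 45.5% in the 3 other apoptosis lists and 68.2% of short-lived mRNAs in the authors' deposited table. It was negative for BAX (-0.313), MCL1 (-0.276) and BCL2L1 (-0.229, percentile 2.68) and positive for PMAIP1 (0.166, percentile 94.8) in the authors' deposited table. For the other 6 members it ran from -0.0343 for BAD to 0.0365 for BBC3 in the authors' deposited table. With no error given for any score, neither the differences nor the order of neighbouring members could be tested.

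Survival and death members were then set against each other. The median of the 3 survival members was -0.238 for tRNA-Glu and that of the 7 death members 0.0419, a difference of 0.28, in the authors' deposited table. For tRNA-Arg the medians were -0.00845 and 0.0476, a difference of 0.056, in the authors' deposited table. The groups overlapped in both columns, since BCL2 lay above BAX and BAD for tRNA-Glu and MCL1 above PMAIP1 for tRNA-Arg. Of the binding partners NOXA and MCL1, PMAIP1 scored above MCL1 by 0.419 for tRNA-Glu, but for tRNA-Arg it was lower, at a difference of -0.0226, in the authors' deposited table. This was not particular to that pair, since BAX scored below BCL2 for tRNA-Glu and above it for tRNA-Arg. Pairs with BCL2L1 could not change sign, because it was the lowest member in both columns. BAD scored above BCL2L1 by 0.267 for tRNA-Glu and 0.0726 for tRNA-Arg, and BBC3 above BCL2L1 by 0.519 and 0.254, in the authors' deposited table.

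Some members are made as several messages, and the authors' deposited table gives them 1 score. RefSeq lists 33 transcripts for BCL2L11, 11 for BCL2L1, 10 for BAX, 7 each for BID and BBC3, 6 each for BCL2 and PMAIP1, 5 for BAK1, 3 for MCL1 and 2 for BAD. For BCL2L1 and MCL1 these include short forms that promote death. Which form each score follows is not stated. No member had a second entry under an older symbol in the authors' deposited table.

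Within a wider set of apoptosis genes the family's extremes lay near both ends. The 10 members were pooled with 56 genes of 3 lists. These were other BCL2 family, BH3 and associated genes, mitochondrial effectors with their inhibitors, and death receptor genes. Among these 66 genes, BECN1 alone scored below BCL2L1 for tRNA-Glu, and BNIP2 and BIRC3 alone scored above BAK1, in the authors' deposited table. MCL1 had 8 of the 66 genes below it for tRNA-Glu according to the authors' deposited table. For tRNA-Arg, APAF1, BNIP3L, BCLAF1 and TNFRSF1A scored below BCL2L1 in the authors' deposited table.

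Other BCL2 family and BH3 genes numbered 22, all measured. The list also holds associated genes that are not members, such as BAG1, BAG3, TMBIM6 and BCLAF1. For tRNA-Glu 4 were at or above 0.1 (13.6% of all genes) and 6 at or below -0.1 (11.4%) according to the authors' deposited table. These 6 included BAG3, BCLAF1 and TMBIM6. For tRNA-Arg the counts were 4 (8.89% of all genes) and 2 (8.05%) in the authors' deposited table. The list's medians were -0.0186 for tRNA-Glu and -0.00579 for tRNA-Arg according to the authors' deposited table. BECN1, an autophagy protein with a BH3 helix that BCL2 binds, had -0.493 for tRNA-Glu and 0.0693 for tRNA-Arg according to the authors' deposited table. The chaperone partner BAG3 split in the same way, at -0.321 and 0.0196, in the authors' deposited table. BNIP2 had 0.356 and 0.0662 in the authors' deposited table. The mitophagy receptors BCL2L13 and BNIP3L had 0.155 and 0.115 for tRNA-Glu but 0.217 and -0.204 for tRNA-Arg according to the authors' deposited table. BCLAF1 had -0.117 and -0.186 in the authors' deposited table.

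The list of mitochondrial effectors and inhibitors (caspases, caspase inhibitors, proteins released from mitochondria, outer membrane channels and nuclease subunits) held 21 genes. For tRNA-Glu 5 were at or above 0.1 (13.6% of all genes) and 6 at or below -0.1 (11.4%) according to the authors' deposited table. For tRNA-Arg these counts were 3 (8.89% of all genes) and 4 (8.05%) in the authors' deposited table. The medians were -0.0563 for tRNA-Glu and 0.00547 for tRNA-Arg according to the authors' deposited table. APAF1, the scaffold of the apoptosome, had -0.0563 and -0.212 in the authors' deposited table. The inhibitor genes BIRC2 and BIRC3, neighbours in the genome and alike in function, had opposite signs: BIRC2 -0.241 and -0.108, BIRC3 0.214 and 0.154, in the authors' deposited table. HTRA2, a mitochondrial protease released through the pore, had -0.228 and -0.103 in the authors' deposited table.

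Death receptor genes had the fewest positive tRNA-Glu scores among the 3 lists, with a median of -0.0582 according to the authors' deposited table. Below zero were 10 of 13, against 16332 of all 34602 genes, in the authors' deposited table. For tRNA-Glu 5 were at or below -0.1 (11.4% of all genes) and 1 at or above 0.1 (13.6%) according to the authors' deposited table. For tRNA-Arg 2 were at or below -0.1 (8.05% of all genes) and 2 at or above 0.1 (8.89%) in the authors' deposited table. The tRNA-Arg median was -0.0277 according to the authors' deposited table. RIPK1, a kinase of the receptor complex, had -0.373 and -0.0337 in the authors' deposited table. TNFRSF1A, the main TNF receptor, had -0.359 and -0.162, and the adaptor FADD -0.252 and -0.106, in the authors' deposited table. The decoy receptor TNFRSF10D had 0.12 and 0.169 in the authors' deposited table. TRAF2 took opposite signs, -0.114 and 0.138, in the authors' deposited table. BID, which joins this branch to the mitochondrion, scored near zero as given above.

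Genes that act on the stability of the MCL1 protein numbered 8. Of these, 3 were at or below -0.1 for tRNA-Glu (11.4% of all genes) according to the authors' deposited table. In the tRNA-Arg column 2 were that low (8.05% of all genes) according to the authors' deposited table. By the authors' deposited table none was at or above 0.1, against 13.6% (tRNA-Glu) and 8.89% (tRNA-Arg) of all genes. With so few genes, nothing is read from that absence. Their medians were -0.06 and -0.0259 according to the authors' deposited table. The MCL1-binding protein TPT1 had -0.219 and -0.286, and IER3 -0.246 and 0.0178, in the authors' deposited table. DUSP6, a phosphatase of the ERK kinases, had -0.347 and -0.153 in the authors' deposited table. GSK3B, a kinase that marks MCL1 for degradation, had -0.0526 and 0.0822 in the authors' deposited table.

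Other short-lived messages lay on both sides of zero. The list of short-lived regulator mRNAs held 22 genes, which include DUSP6 and IER3. For tRNA-Glu 7 were at or above 0.1 (13.6% of all genes) and 7 at or below -0.1 (11.4%) in the authors' deposited table. For tRNA-Arg 7 were at or above 0.1 (8.89% of all genes) and 3 at or below -0.1 (8.05%) in the authors' deposited table. The list's medians were -0.0159 for tRNA-Glu and 0.0372 for tRNA-Arg according to the authors' deposited table. JUN had 0.528 and 0.248 and PLK2 0.503 and 0.477 in the authors' deposited table. ZFP36L2, which binds AU-rich elements, had -0.543 and -0.181, and SOX4 -0.0448 and -0.561, in the authors' deposited table. MCL1 at -0.238 and 0.0381 lay inside the range of this list in both columns of the authors' deposited table.

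**Figure D3:**
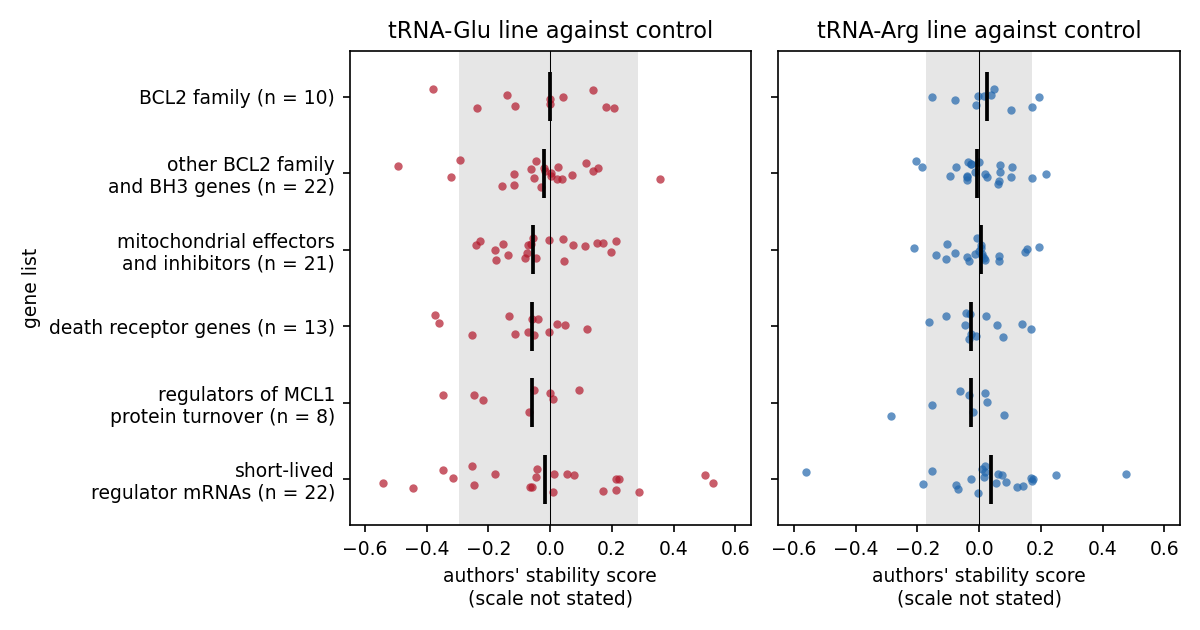
Stability scores (x axes, scale not stated) of the BCL2 family and 5 other gene lists (y axis, with the number of genes) for tRNA-Glu (left) and tRNA-Arg (right) against control. Points are genes, with vertical scatter added for legibility, black bars are list medians and grey bands the central 95% of all genes. In the authors' deposited table the family median lies at -0.000953 for tRNA-Glu and 0.0268 for tRNA-Arg, and the short-lived list spans the widest range in both columns.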

How the data were processed

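RNA of 12 MDA-MB-231 samples was measured on Illumina BeadChips, and groups were taken from the sample titles. The authors deposited a signed stability score for each gene and tRNA line, whose formula is not given in the sources used here. They also deposited raw intensity values, not normalized per the file headers, and processed intensity values on a linear scale. The tool lumi is named without version or step in the submitters' processing notes. Another 12 columns of detection p-values, named by chip position, were not used.

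The members and gene lists were chosen with earlier results of these data known. Members were matched by symbol. Percentiles are mean ranks among all 34602 genes of a column. The ranking code was checked on simulated data, which does not bear on the accuracy of the scores. A size of 0.1, chosen after the scores were seen, counts as past. All members are named, and of each other list the genes among the 3 largest in size in either column. Some items that this rule names are not reported here. A plain 9 h minus 0 h difference against mock was computed from the processed intensity values in 6 ways (log10, log2 and natural log, with logs taken before or after averaging). At most 1 of the 34602 genes had both scores within 1e-06 of a probe, so the score's scale remained unknown.

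The planned limma contrasts on probes were not run, because no table here pairs probes with genes. RefSeq transcripts were counted in GRCh38.p14 and no coordinates were used. Work was done in Python 3.11.15 with pandas 2.3.3, numpy 2.4.6, scipy 1.17.1 and matplotlib 3.10.9.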

Additional observations from a re-analysis of the deposited data

How the results depend on the processing

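The scores carry no replicate values or p-values, so alternatives bear only on counts, medians and percentiles. In the authors' deposited table the family median for tRNA-Glu, -0.000953, became -0.0306 as a mean and 6.57e-05 without MCL1, so its sign depends on the summary. For tRNA-Arg the median of 0.0268 became 0.0326 as a mean and 0.0155 without MCL1 in the authors' deposited table. With 0.2 in place of 0.1, chosen after seeing the data, 1 member was past it above (5.13% of all genes) and 2 below (4.76%) for tRNA-Glu, and 0 above (1.61%) and 0 below (1.71%) for tRNA-Arg according to the authors' deposited table. With 0.05, 2 members were below (21.1% of all genes) for tRNA-Arg according to the authors' deposited table. Other counts at 0.05, 0.2 or 1 SD of the column were within 1.5 times the reported ones. Among genes without placeholder names, 18 of 20 member percentiles stayed on the same side of the median and kept their place inside or outside the outer 5%. MCL1 moved to percentile 5.21 and BAK1 to 94.3 for tRNA-Glu, both just out of the outer 5%, in the authors' deposited table. No paired analysis was possible because the scores come without p-values or replicate values and the probes were not paired with genes. The planned array alternatives and leaving out each array were not run for that reason. Array signal behind each score is unknown, so dim messages cannot be set apart from those of equal stability in the tRNA line and control.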
